A study of Mus musculus with 6 samples.

Results

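The genes described here encode Rab GTPases and vesicle SNARE proteins with their syntaxin-binding partners. They were defined by symbol: numbered Rab, Stx, Vamp and Stxbp genes and 4 members of the SNAP25 family. This set was chosen with earlier results of these data known, which limits every comparison of its shares with those of all genes. The symbols of the count table held 86 of these genes among 25628, of which 56 were Rab genes and 30 were SNARE or syntaxin-binding genes. The measurements came from poly(A) RNA-seq of mouse bone marrow leukaemic erythroid cells (TgSpi1, numbered 722), which overexpress the transcription factor PU.1 from Spi1 and were grown with erythropoietin. All groups carried an shRNA against Spi1 that doxycycline induces. One group had no doxycycline (Dox_Untreated, untreated below) and the other had it for 48 h (Dox_Treated, doxycycline below), with 3 libraries each, numbered 1 to 3, that the labels call biological replicates. The labels name 1 leukaemia number, and doxycycline without the shRNA was not among the groups, so that an effect of the drug itself and of the shRNA cannot be told apart.

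Rab GTPases are small switches that sit on membranes in their GTP form and recruit the tethers, motors and fusion factors of one transport step. SNAREs are the coiled-coil proteins that then pull a vesicle and its target together: an R-SNARE, usually a VAMP, pairs with a syntaxin and a SNAP25-type protein, guided by Sec1/Munc18 proteins such as the Stxbp family. In erythroid cells this machinery carries the transferrin receptor through its endocytic cycle, whereas in myeloid and mast cells and platelets a set of Rabs and SNAREs releases secretory granules.

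Total counts lay between 78926663 and 101276319 per library, so that 1 count stood for 0.010 to 0.013 CPM, counts scaled by edgeR to a common library size. Spi1 stood between 329.6 and 415 CPM untreated and between 62.1 and 84.8 CPM with doxycycline, which fits the labels (log2 fold change -2.27, SE 0.17, edgeR adjusted p = 0.0030). All 12 listed erythroid markers were tested, and Gata1 stood between 248 and 307 CPM in the 6 libraries. Of these markers 1 rose in edgeR, Car2 (0.417% of all genes tested rose), and DESeq2 called 2 higher (2.06% of all genes). With the block 7 were higher (10.3% of all genes) and 2 lower (15.6% of all genes). Libraries of equal number deviated together from their group means (r = 0.77, 0.74 and 0.72), and a fit with the number as a block is given where it changes a call. Nothing says that same-numbered libraries share a culture or day, and p-values measure only the spread between these libraries. In bulk RNA, fewer cells of a type and less RNA per cell cannot be told apart.

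Members that passed the test all fell. Of the 86 genes, 73 passed the filter on low counts and were tested. The other 13 had deposited counts between 1 and 15 in every library, at most 0.152 CPM, among them Rab32 and Rab38, Rabs of melanosomes and related organelles. With edgeR's quasi-likelihood test over all 14158 genes tested, 5 of the 73 members were lower at an adjusted p under 0.05 (6.85%, where 2.18% of all genes tested were lower) and 0 were higher (0.417% of all genes). At an unadjusted p under 0.05, 13 members were lower (9.56% of all genes) and 1 was higher (5.86% of all genes). The 13 were the 5 fallers with Rab1b, Rab8b, Rab11a, Rab13, Rab20, Rab27a, Rab37 and Stxbp2. DESeq2 called 9 lower (5.10% of all genes), the 5 fallers with Rab8b, Rab27a, Rab37 and Stxbp2, and 0 higher (2.06% of all genes). With the replicate block 18 members were lower (24.7%, against 15.6% of all genes) and 5 higher (6.85%, against 10.3% of all genes), and the 5 fallers were among the 18. DESeq2 with the block gave 17 lower (13.9% of all genes) and 5 higher (10.1% of all genes). These shares of all genes also apply to the counts per list below. The median log2 fold change of the tested members was -0.10, with 43 of 73 below 0, and that of all genes was 0.01, with 6977 of 14158 below 0.

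The fallers were Vamp3, Rab18, Stx3, Rab25 and Rab44. They act at different steps of membrane traffic and spanned abundant and scarce transcripts. For Stx3 and Rab25 the 300 bases from 250 before to 50 after the RefSeq start site (GRCm38.p6) are shown. PU.1 is an ETS factor, and these were the fallers with a promoter sequence at hand. None was at hand for Vamp3, Rab18 and Rab44. The window of Rab2b is shown as that of the tested member that held the longer motif. Capitals mark GAGGAAGT, a PU.1-type ETS motif, or its first 6 letters GAGGAA, on either strand (ACTTCCTC and TTCCTC when read on the printed strand). All are on the minus strand and written 5′ to 3′ in the direction of the gene.
Stx3, chr19:11819354-11819653: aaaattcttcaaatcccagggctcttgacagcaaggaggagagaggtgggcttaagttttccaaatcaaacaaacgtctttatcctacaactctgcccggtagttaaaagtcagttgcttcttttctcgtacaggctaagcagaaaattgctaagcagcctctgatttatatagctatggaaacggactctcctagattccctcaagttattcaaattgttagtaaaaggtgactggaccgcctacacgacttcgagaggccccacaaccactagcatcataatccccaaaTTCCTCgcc
Rab25, chr3:88548230-88548529: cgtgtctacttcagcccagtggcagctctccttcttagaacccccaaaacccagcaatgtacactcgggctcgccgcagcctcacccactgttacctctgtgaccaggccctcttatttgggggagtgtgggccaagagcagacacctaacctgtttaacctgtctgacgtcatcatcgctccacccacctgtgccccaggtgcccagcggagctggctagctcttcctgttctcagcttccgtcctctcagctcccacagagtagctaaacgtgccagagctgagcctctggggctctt
Rab2b, chr14:52279346-52279645: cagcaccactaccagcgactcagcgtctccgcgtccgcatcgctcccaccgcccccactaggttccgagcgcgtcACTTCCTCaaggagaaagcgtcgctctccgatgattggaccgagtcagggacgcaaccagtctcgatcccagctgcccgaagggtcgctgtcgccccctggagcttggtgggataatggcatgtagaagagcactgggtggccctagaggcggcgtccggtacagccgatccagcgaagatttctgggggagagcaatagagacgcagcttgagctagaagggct

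The Stx3 sequence held GAGGAA once, on the opposite strand and 41 bases downstream of the start, the Rab25 sequence held neither motif, and the Rab2b sequence held GAGGAAGT on the opposite strand, 175 bases upstream. Promoter sequences matched 72 of the 86 members, in 89 windows. GAGGAAGT was in 2 of these 89 windows (2.25%), those of Rab2b and Rab32, and in 3.20% of all 32851 windows. GAGGAA, chosen after the data were examined, was in 21 (23.6%) and in 28.3% of all. The core GGAA, part of both, was in 97.8% and 96.0%. Of the 13 members that were lower with the block and had a sequence, 4 held GAGGAA, and of the other 48 tested members with a sequence 12 did. Vamp3, Rab18, Rab44, Rab37 and Rab27b were also lower with the block but had no sequence. A match is only of letters in this window.

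Vamp3, also called cellubrevin, the R-SNARE of recycling endosomes, fell to a lower level in every doxycycline library. It stood at 165, 139 and 140.4 CPM in untreated replicates 1, 2 and 3 and at 50.01, 37.3 and 45.8 CPM with doxycycline. The groups did not overlap, and the lowest untreated library was well above the highest treated one. The gene (ENSMUSG00000028955.3, chr4:151047300-151057963, minus strand, GRCm38, protein coding) had a log2 fold change of -1.74 (SE 0.16, adjusted p = 0.0058, edgeR), and it was the faller whose call was kept without any single library.

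Rab18, which acts at the endoplasmic reticulum and on lipid droplets, was nearly constant among untreated libraries. It stood there at 177, 174 and 181 CPM, and at 60.3, 43.0 and 64.5 CPM with doxycycline. All treated libraries were low, replicate 2 lowest. The gene (ENSMUSG00000073639.6, chr18:6733905-6794429, plus strand, protein coding; its exons overlap those of a sense-overlapping transcript, AC131796.2) had a log2 fold change of -1.67 (SE 0.18, adjusted p = 0.0099). The call was lost without untreated replicate 1 (adjusted p = 0.050) or doxycycline replicate 1 (adjusted p = 0.056).

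Stx3 encodes syntaxin 3, a plasma membrane syntaxin known from apical membranes and from granule release. Its levels were low: 2.14, 2.45 and 1.60 CPM untreated and 0.187, 0.206 and 0.281 CPM with doxycycline, which rest on 158 to 192 and on 17 to 28 deposited counts. The groups lay far apart. The gene (ENSMUSG00000041488.16, chr19:11775118-11819403, minus strand, protein coding) had a log2 fold change of -3.19 (SE 0.32, adjusted p = 0.0076), and its call was lost without doxycycline replicate 1 (adjusted p = 0.053).

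Rab25, a Rab11 relative best known from epithelia, was scarcer still. It stood at 0.917, 0.918 and 0.991 CPM untreated and at 0.176, 0.185 and 0.130 CPM with doxycycline, the latter from 13 to 18 counts. The untreated values lay close together and none overlapped the treated ones. The gene (ENSMUSG00000008601.12, chr3:88542029-88548300, minus strand, protein coding) had a log2 fold change of -2.52 (SE 0.28, adjusted p = 0.011). The call was lost without untreated replicate 1 (adjusted p = 0.050) or 2 (adjusted p = 0.060) or doxycycline replicate 1 (adjusted p = 0.062).

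Rab44, a large Rab of haematopoietic cells linked to granule release in mast cells, had the largest fold change of the members. It stood at 7.85, 14.1 and 3.34 CPM untreated and at 0.406, 1.02 and 0.251 CPM with doxycycline. Replicate 3 was lowest and replicate 2 highest in both groups, and the groups did not overlap. The gene (ENSMUSG00000064147.7, chr17:29114145-29148980, plus strand, protein coding) had a log2 fold change of -3.91 (SE 0.71, adjusted p = 0.037). Within equal numbers the log2 ratio was -4.27, -3.80 and -3.73. The call was kept without untreated replicate 3 (adjusted p = 0.036) and lost without any other single library (adjusted p between 0.051 and 0.15).

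**Figure D1:**
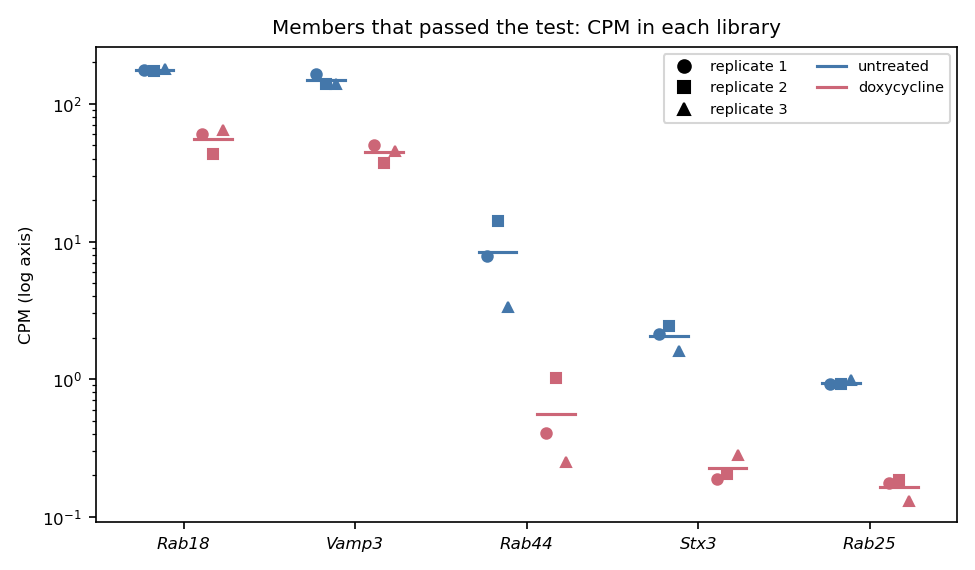
CPM (log axis) of the 5 members with an adjusted p under 0.05 in each library, untreated in blue and doxycycline in red, with a symbol per replicate number and a line at each mean of 3. In no gene do the groups overlap, and Rab44 has the widest spread within a group.

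The Rabs of secretory granules and lysosome-related organelles, which dock and prime storage granules, included the member with the largest fold change, Rab44. Of 11 members of this list 7 were tested, 1 fell in edgeR (Rab44), none rose, and 4 were lower with the block (15.6% of all genes were). DESeq2 without the block called 3 lower (5.10% of all genes), Rab44, Rab37 and Rab27a. Rab37, a granule Rab of mast cells, stood at 12.8, 13.9 and 4.06 CPM untreated and at 1.81, 3.13 and 0.713 CPM with doxycycline. Its groups did not overlap, with replicate 3 lowest in both (log2 fold change -2.44 with SE 0.64; adjusted p = 0.11 without and 5.94e-06 using the block). Rab27a, which anchors granules of platelets and cytotoxic and mast cells, stood at 32.6, 28.2 and 16.6 CPM untreated and at 15.5, 14.2 and 7.65 CPM with doxycycline. Each treated library was below its untreated partner by nearly the same ratio: the log2 ratio within numbers was -1.07, -0.99 and -1.12 (adjusted p = 0.19 without and 6.99e-05 using the block). Exons of Rab27a overlap those of the pseudogene Gm27186.

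Its relative Rab27b, prominent in platelet dense granules, varied more by replicate number than by treatment. It stood at 11.9, 11.1 and 3.32 CPM untreated and at 10.2, 7.84 and 1.62 CPM with doxycycline (log2 fold change -0.41 with SE 0.70; adjusted p = 0.86 without and 0.032 using the block). The untreated replicate 3 was below both treated replicates 1 and 2. Rab3d, another granule Rab, had groups that did not overlap, 15.3 to 21.5 CPM untreated and 12.8 to 14.2 CPM treated, without passing either fit (log2 fold change -0.38 with SE 0.18; adjusted p = 0.39 without and 0.057 using the block). Rab3a, known from synaptic vesicles, stood at 4.45 ± 0.720 and 5.10 ± 0.552 CPM (SD, n = 3 each), and its exons overlap those of Mpv17l2 on the opposite strand. Per kb of exon, Rab27a took 38.1% ± 1.53 of the summed level of the 11 genes untreated and Rab3d 25.4% ± 6.16. With doxycycline these shares were 31.6% ± 5.46 and 33.7% ± 8.50, while that of Rab44 went from 9.08% ± 4.45 to 1.07% ± 0.681 and that of Rab3a from 12.0% ± 2.50 to 23.4% ± 2.21 (SD, n = 3 each), values given without a test. The summed level was itself lower, at 21.1, 19.7 and 11.4 CPM per kb untreated and 11.2, 10.8 and 7.76 treated. A larger share is therefore not a higher level: Rab3a had a log2 fold change of 0.20 (SE 0.22, edgeR adjusted p = 0.77).

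**Figure D2:**
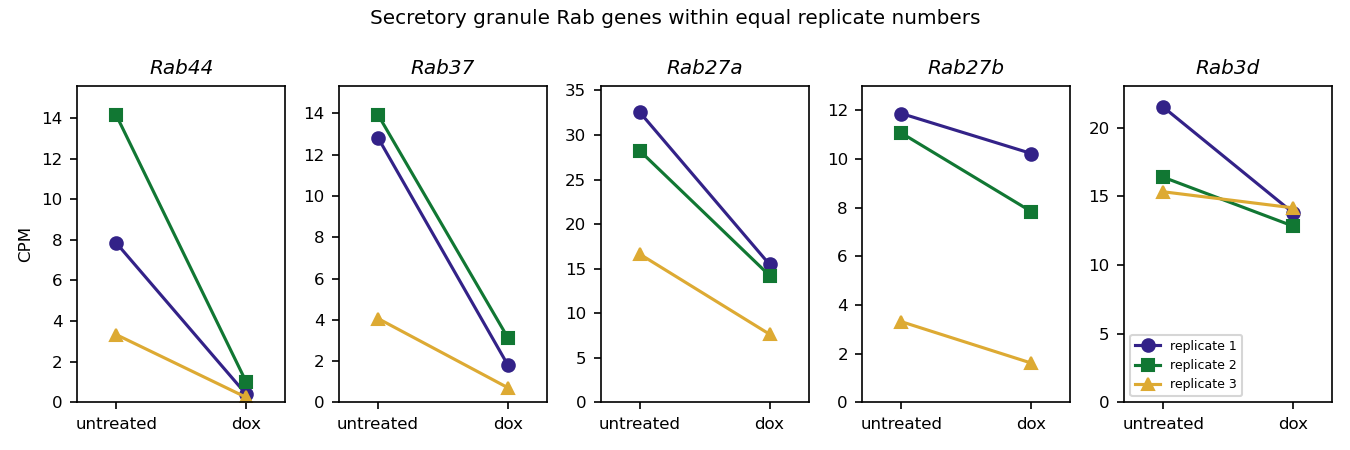
CPM of 5 secretory granule Rab genes, each line joining the untreated and doxycycline (dox) library of equal replicate number. Of the 7 tested genes of this list 5 had a log2 fold change below 0, and only those are shown. Rab3a, not shown, had log2 ratios of 0.05, 0.31 and 0.25 within numbers 1, 2 and 3 (log2 fold change 0.20). Every line drawn slopes downward, Rab44 being the gene of these that passed in edgeR without the block. Replicate 3 is the lowest line for Rab44, Rab37, Rab27a and Rab27b.

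The summed levels of mast cell and of platelet markers were lowest in replicate 3 of both groups, as were Rab44, Rab37, Rab27a and Rab27b. Single markers differed in this: of 7 tested mast cell markers 3 were lowest and 2 highest in replicate 3 of both groups, and of 9 tested platelet markers 5 and 2. Erythroid markers differed by replicate number too: of 12 tested, 9 were highest and 0 lowest in replicate 3 of both groups. Of 10 mast cell and basophil markers 9 had a row, with a summed level of 272 to 449 CPM untreated and 295 to 473 CPM with doxycycline, most of it from Gata2, a factor that progenitors also express. Mcpt8 and Prss34 were at or below 0.1 CPM in every library. The IgE receptor gene Fcer1a stood at 61.3, 34.8 and 2.65 CPM untreated and at 50.5, 23.2 and 8.40 CPM treated, and its partner Ms4a2 at 6.78, 10.3 and 1.77 and at 0.834, 0.997 and 0.321 CPM. All 10 megakaryocyte and platelet markers had a row and their sum was 311, 222 and 82.4 CPM untreated and 163, 125 and 49.1 CPM treated. With edgeR none of the markers of either list passed without the block (5 mast cell markers lower, and 4 platelet markers lower and 1 higher, at an unadjusted p under 0.05). DESeq2 without the block called 1 mast cell marker lower, Ms4a2, and 2 platelet markers, Gp9 and Itga2b. With the block in edgeR 4 mast cell markers were lower, and 5 platelet markers lower and 1 higher. Their part in the results on granule Rabs was not tested. Without replicate 3 of both groups, an alternative added after the data were examined, Rab44 (log2 fold change -3.94, adjusted p = 0.048) and Rab37 (-2.43, adjusted p = 0.039) were both lower. Rab27a (-1.03, adjusted p = 0.075) and Rab27b (-0.34, adjusted p = 0.59) did not pass. Leaving out replicate 3 does not test the part of mast cells or platelets. In that fit 6 members were lower, the 5 above and Rab37 (1.32% of all genes tested were lower), as was 1 mast cell marker, Ms4a2 (-3.22, adjusted p = 0.023), and no platelet marker passed.

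Of the lists for the remaining lineages no marker passed in edgeR without the block, where 2 monocyte and macrophage markers, Cd68 and Cd14, were lower at an unadjusted p under 0.05 and by DESeq2. Neutrophil markers (10 of 10 with a row) summed to 43.9 CPM in untreated replicate 2 and to between 0.317 and 9.83 CPM in the other untreated libraries, against 0.165 to 11.4 CPM treated, with Elane and Ly6g at or below 0.1 CPM. Monocyte and macrophage markers (9 of 10) summed to 19.4 to 25.5 CPM untreated and 15.9 to 22.1 CPM treated, mostly Ccr2, with Mrc1, Cx3cr1 and Marco at or below 0.1 CPM. B cell (10 of 10, at most 2.80 CPM), T and NK cell (7 of 10, at most 7.43 CPM, with Cd3e, Zap70, Klrb1c, Gzma and Cd2 at or below 0.1 CPM) and stromal and endothelial (7 of 10, at most 1.93 CPM) markers were low in sum. With the block 2 monocyte markers were lower, 2 T and NK cell markers were higher and no neutrophil, B cell or stromal marker passed. Their part in the members' results was not tested.

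Among Rabs of the recycling endosome and of delivery to the cell surface, Rab25 was the faller of 10 tested, and none rose. With the block 4 were lower (15.6% of all genes were): Rab25, Rab8b, Rab13 and Rab11a. Rab8b, which carries cargo to the plasma membrane, stood at 159, 158 and 200.3 CPM untreated and at 113, 95.7 and 124 CPM with doxycycline. The groups did not overlap (log2 fold change -0.64 with SE 0.16; adjusted p = 0.10 without and 5.72e-04 using the block). Its close relative Rab8a stood at 128 ± 14.5 and 127 ± 9.49 CPM (SD, n = 3 each; log2 fold change -0.01, 95% interval -0.34 to 0.31). Per kb, Rab8b took 52.0%, 56.5% and 62.4% of the sum of both untreated and 45.1%, 44.6% and 48.9% with doxycycline.

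Rab11a, the main Rab of transferrin receptor recycling, stood at 103, 90.8 and 84.4 CPM untreated and at 85.6, 56.6 and 55.7 CPM treated, where treated replicate 1 was above the lowest untreated library (log2 fold change -0.49 with SE 0.20; adjusted p = 0.31 without and 0.0045 using the block). Rab13, known from tight junctions, stood at 4.34 ± 0.422 and 2.85 ± 0.436 CPM (SD, n = 3 each; adjusted p = 0.26 without and 0.013 using the block). Rab10, the most abundant of this list, had a log2 fold change of 0.01 (95% interval -0.33 to 0.35).

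None of 10 tested early endosome Rabs passed without the block in edgeR (1 lower at an unadjusted p under 0.05) or DESeq2. Rab14 was the most abundant by CPM, at 284 ± 53.0 and 315 ± 75.5 CPM (log2 fold change 0.15, SE 0.22), followed by Rab5c, a Rab of early endosome fusion, at 236 ± 21.5 and 216 ± 16.2 CPM (SD, n = 3 each; log2 fold change -0.13, 95% interval -0.43 to 0.17). Per kb Rab5c took 80.8% ± 1.12 of the summed Rab5a, Rab5b and Rab5c level untreated and 80.7% ± 2.51 treated, so the makeup of this trio differed by less than its spread. Rab20, a Rab of phagosomes and endosomes, was the 1 member lower with the block, at 1.55, 1.35 and 1.95 CPM untreated and 0.483, 0.606 and 1.16 CPM treated (log2 fold change -1.10 with SE 0.38; adjusted p = 0.22 without and 0.0038 using the block).

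None of 8 tested late endosome and lysosome Rabs passed without the block in edgeR (0 at an unadjusted p under 0.05) or DESeq2. Rab7, which governs fusion with lysosomes, was among the steadiest members: 239 ± 7.54 CPM untreated and 250.03 ± 9.59 CPM with doxycycline (SD, n = 3 each; log2 fold change 0.07, 95% interval -0.20 to 0.33). With the block Rab29, a Rab of the Golgi and lysosomes, was lower (-0.46, SE 0.10, adjusted p = 0.0090), and Rab12, which steers the transferrin receptor to degradation, was higher (0.34, SE 0.11, adjusted p = 0.044). Rab12 stood at 21.9, 20.4 and 13.9 CPM untreated and at 28.6, 28.1 and 15.7 CPM treated. Rab9, which returns mannose 6-phosphate receptors to the Golgi, followed the replicate number: 65.6, 52.4 and 32.1 CPM untreated and 66.4, 49.4 and 32.6 CPM treated.

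Rabs of the endoplasmic reticulum and Golgi had Rab18 as the faller of 9 tested, and none rose. The Rab1 pair of the step from endoplasmic reticulum to Golgi stood side by side with unlike signs. Rab1a stood at 233, 219 and 205 CPM untreated and at 307, 232 and 249 CPM treated (log2 fold change 0.26 with SE 0.15; adjusted p = 0.48 without and 0.070 using the block). Rab1b stood at 145, 123 and 114 CPM untreated and at 103, 97.5 and 104 CPM treated (-0.32 with SE 0.14; adjusted p = 0.32 without and 0.035 using the block). Per kb, Rab1a took 49.0% to 51.9% of their sum untreated and 58.7% to 64.1% treated, without overlap and without a test of the share. With the block Rab2b, a Golgi Rab, was also lower (-0.42, SE 0.13, adjusted p = 0.034), and Rab6a, a Rab of retrograde Golgi traffic, higher (0.27, SE 0.09, adjusted p = 0.048). Exons of Rab2b overlap those of Tox4, and exons of Rab6a those of Mrpl48, on the opposite strand, and without strand the reads of such pairs cannot be told apart.

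The Rabs linked to cilia were Rab28 and Rab23. Rab28 stood at 71.1, 60.7 and 56.8 CPM untreated and at 103, 80.4 and 83.3 CPM with doxycycline. Every treated library was above every untreated one, and it was the member with an unadjusted p under 0.05 in the upward direction (log2 fold change 0.50 with SE 0.16; adjusted p = 0.19 without and 0.0023 using the block). Rab23 stood at 9.62 ± 1.10 and 7.61 ± 1.11 CPM (SD, n = 3 each; adjusted p = 0.51 without and 0.062 using the block).

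**Figure D3:**
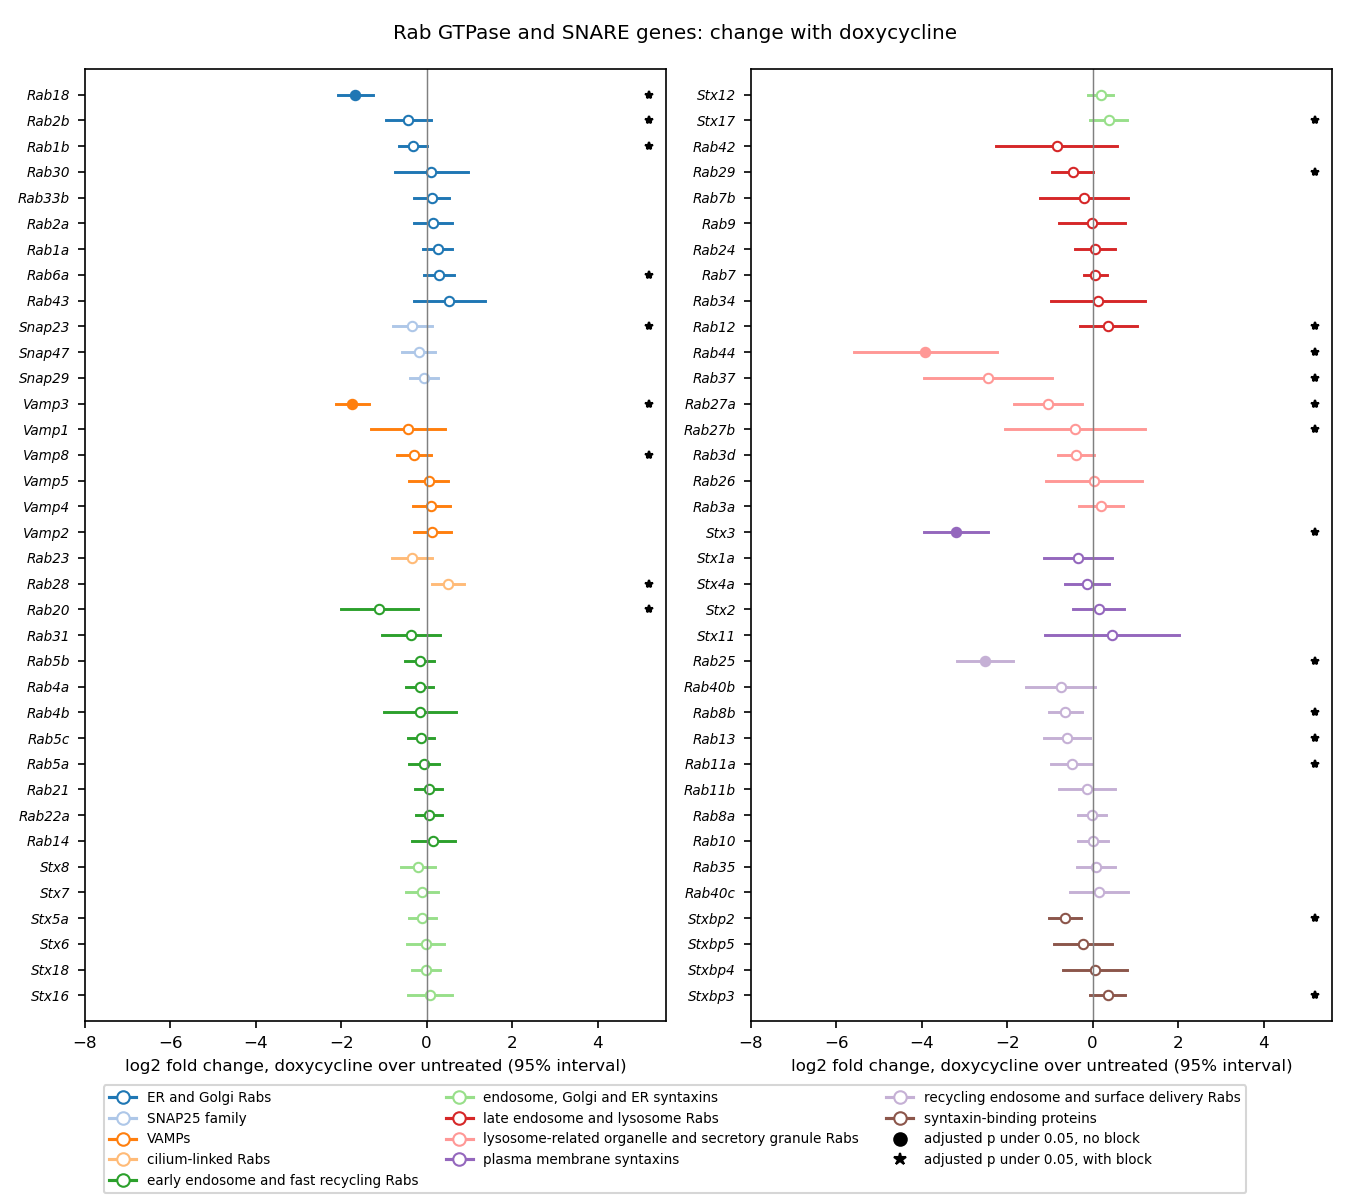
Log2 fold change (doxycycline over untreated) with its 95% interval for 72 of the 73 tested members, coloured by role. Filled points passed in edgeR without the block (5 genes, all lower) and stars mark the 23 genes that passed with it, 18 lower and 5 higher.

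In the VAMP family 1 of 6 tested genes fell, Vamp3, and none rose. No row carried the symbol Vamp7, so that sums and shares of VAMPs are those of these 6 genes. Vamp8, the R-SNARE of late endosomes and of platelet and mast cell granules, was the most abundant member of all per kb, at 133 ± 21.6 CPM per kb untreated and 108 ± 14.4 treated (SD, n = 3 each). Its CPM were 364, 274 and 282 untreated and 284, 218 and 249 treated, which overlap (log2 fold change -0.29 with SE 0.17; adjusted p = 0.49 without and 0.034 using the block). Vamp5 stood at 151 ± 21.3 and 156 ± 34.2 CPM (log2 fold change 0.05, 95% interval -0.42 to 0.51). Of the summed VAMP level per kb, Vamp3 took 19.9%, 21.5% and 20.9% untreated and 8.26%, 8.05% and 7.92% with doxycycline. Vamp2, its nearest relative, took 1.41% ± 0.346 and 2.02% ± 0.578 (SD, n = 3 each).

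**Figure D4:**
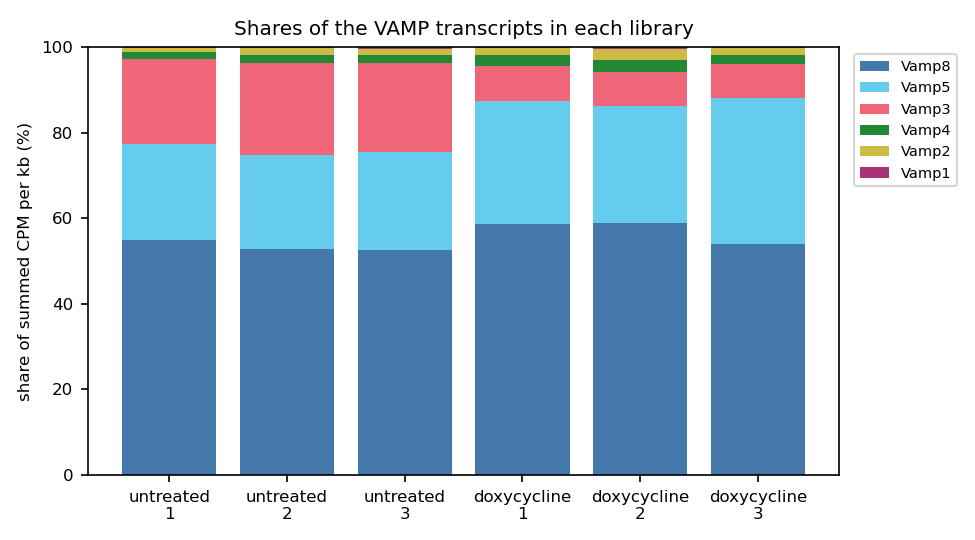
Share (%) of each VAMP gene in the summed CPM per kb of the 6 VAMP genes with a row, 1 bar per library. Vamp3 makes up 19.9% to 21.5% of the untreated bars and 7.92% to 8.26% of the doxycycline bars.

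Of the plasma membrane syntaxins 1 of 5 tested fell, Stx3, and none rose. Stx4a and Stx2, syntaxins of constitutive and regulated surface fusion, made up most of this group: per kb, 46.6% ± 8.49 and 46.0% ± 5.63 untreated, and 42.6% ± 12.3 and 49.7% ± 7.48 treated (SD, n = 3 each). Stx3 took 0.877% ± 0.222 and 0.0931% ± 0.0107. Stx11, a syntaxin of cytotoxic granule release, stood at 5.10, 6.13 and 15.2 CPM untreated and at 5.49, 6.03 and 24.6 CPM treated. It was high in both libraries numbered 3, those in which Rab27a, Rab27b, Rab37 and Rab44 were lowest, and had no call (log2 fold change 0.45 with SE 0.67; adjusted p = 0.84 without and 0.23 using the block).

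Of 8 syntaxins of endosomes, Golgi and endoplasmic reticulum none passed without the block in edgeR (0 at an unadjusted p under 0.05) or DESeq2. Stx17, the syntaxin of autophagosomes, was higher with it, at 46.2, 53.7 and 44.2 CPM untreated and 62.5, 75.2 and 49.3 CPM treated (0.36, SE 0.10, adjusted p = 0.024). Each treated library was above its partner, while treated replicate 3 lay below untreated replicate 2. Stx12, an endosomal syntaxin and the most abundant of this list, stood at 79.5 ± 2.32 and 90.4 ± 7.28 CPM (SD, n = 3 each; adjusted p = 0.58 without and 0.17 using the block), with no overlap of the groups.

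Of the SNAP25 family none of 3 tested passed without the block in edgeR (0 at an unadjusted p under 0.05) or DESeq2. Snap23, the form used outside neurons, stood at 294, 258 and 233 CPM untreated and at 264, 193 and 166 CPM treated (log2 fold change -0.33 with SE 0.20; adjusted p = 0.51 without and 0.020 using the block). Snap29, which works with Stx17, had a log2 fold change of -0.07 (95% interval -0.40 to 0.26), and its exons overlap those of Pi4ka on the opposite strand.

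Of the syntaxin-binding proteins none of 5 tested passed in edgeR without the block. DESeq2 without the block called 1 lower, Stxbp2, which in edgeR had an unadjusted p under 0.05. Stxbp2, or Munc18-2, which binds Stx3 and Stx11 in granule release, stood at 66.7, 73.6 and 63.6 CPM untreated and at 39.6, 51.4 and 39.8 CPM treated. The groups did not overlap (log2 fold change -0.64 with SE 0.16; adjusted p = 0.095 without and 6.86e-04 using the block). Stxbp3, or Munc18-3, which binds Stx4, was higher with the block, at 27.9, 27.6 and 34.2 CPM untreated and 35.8, 33.4 and 45.1 CPM treated (0.35, SE 0.10, adjusted p = 0.024). Stxbp5, or tomosyn, which occupies syntaxins in place of a VAMP, stood at 71.7 ± 19.8 and 61.2 ± 21.6 CPM (SD, n = 3 each; log2 fold change -0.23, 95% interval -0.91 to 0.45).

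Members whose groups did not overlap were counted as well. With doxycycline 15 of the 73 lay wholly below the untreated range (20.5%, where 11.7% of all genes tested did) and 2 wholly above it (2.74%, against 8.88% of all genes). The 2 were Rab28 and Stx12. Replicate number was the other axis of variation: in the block fit 30 of the 73 differed between the numbers (41.1%, near the 43.3% of all genes). The smallest adjusted p of that term belonged to Stx11 (1.22e-04), Rab27b (1.40e-04), Rab44 (2.75e-04), Rab37 (3.15e-04) and Rab9 (3.87e-04).

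The genes that act on Rabs and SNAREs were described from 8 lists of 189 partners. Of these, 174 had a row and 147 were tested: 3 fell (2.04%, close to the 2.18% of all genes) and 0 rose. At an unadjusted p under 0.05, 18 were lower and 8 higher (9.56% and 5.86% of all genes). DESeq2 called 9 lower and 3 higher (5.10% and 2.06% of all genes). With the block 36 were lower (24.5%, against 15.6% of all genes) and 11 higher (7.48%, against 10.3% of all genes). Their median log2 fold change was -0.09. The 3 fallers were regulators of the GTPase switch. Tbc1d10c, a leukocyte GTPase activator, stood at 1.85, 2.27 and 2.45 CPM untreated and at 0.0658, 0.195 and 0.231 CPM treated (log2 fold change -3.72, SE 0.46, adjusted p = 0.014). Dennd1c, an exchange factor for Rab35, stood at 1.90, 2.66 and 1.76 and at 0.110, 0.360 and 0.161 CPM (-3.32, SE 0.48, adjusted p = 0.019). Rinl, an exchange factor for Rab5, stood at 34.6, 32.2 and 32.9 and at 10.7, 9.78 and 17.6 CPM (-1.39, SE 0.24, adjusted p = 0.033). In none of these did the groups overlap. Without untreated replicate 1 or 2 none of the 3 passed, and without doxycycline replicate 1 only 1 did.

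By list, the exchange factors had 2 fallers of 33 tested, with 8 lower and 4 higher with the block. The GTPase activators had 1 faller of 33, with 5 lower and 3 higher. Of 33 Rab effectors none passed (4 lower and 2 higher at an unadjusted p under 0.05, and 1 lower and 2 higher by DESeq2). With the block 15 effectors were lower (45.5%, against 15.6% of all genes) and 3 higher (9.09%, against 10.3% of all genes). In that fit 26 of the 33 differed between replicate numbers (78.8%, against 43.3% of all genes). Groups lay apart for 4 lower effectors (12.1%, near the 11.7% of all genes) and 2 higher ones (6.06%, against 8.88% of all genes). The most abundant effector by CPM, Inpp5b, an inositol phosphatase that binds Rab5, stood at 225 ± 11.9 and 182 ± 20.0 CPM (SD, n = 3 each; adjusted p = 0.32 without and 0.023 using the block). Of 9 genes of NSF, SNAPs and other Sec1/Munc18 proteins none passed (2 lower at an unadjusted p under 0.05, and 1 by DESeq2) and 3 were lower with the block. They included Nsf, the ATPase that takes used SNARE complexes apart, at 186, 220 and 205 CPM untreated and 107, 125 and 144 CPM treated (-0.70 with SE 0.15; adjusted p = 0.068 without and 4.22e-04 using the block).

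None of 12 other SNAREs passed (1 lower at an unadjusted p under 0.05, and 0 by DESeq2), and with the block 1 was lower, the Golgi SNARE Gosr2 (179 ± 18.6 and 143 ± 2.15 CPM, SD, n = 3 each, adjusted p = 0.29 without and 0.030 using the block). None of 8 genes of Rab prenylation and extraction passed (0 at an unadjusted p under 0.05, and 0 by DESeq2), and 1 was lower with the block, Gdi2, which takes Rabs off membranes (387 ± 114 and 308 ± 114 CPM, SD, n = 3 each, adjusted p = 0.71 without and 0.019 using the block). None of 16 tether genes passed (1 lower at an unadjusted p under 0.05, and 1 by DESeq2), and 3 were lower with the block. Exoc6, the exocyst subunit mutated in the anaemic hemoglobin-deficit mouse, stood at 259 ± 19.5 and 249 ± 15.6 CPM (SD, n = 3 each; -0.06, SE 0.12, adjusted p = 0.89). None of 3 tested synaptotagmins passed (1 higher at an unadjusted p under 0.05, and 0 by DESeq2), and 1 was higher with the block, while Syt11 stood at 2.26 ± 0.283 and 1.89 ± 0.349 CPM (SD, n = 3 each).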

How the data were processed

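The authors deposited raw read counts per gene symbol, with 1 column for each of 6 libraries made with the Illumina TruSeq RNA v2 kit, per the labels' protocols. STAR, DESeq2, bcl2fastq 2.17.1.14 and the builds GRCm38 and mm10 are named, with no roles, per the submitters' processing notes. How reads were counted (program, annotation, strand, reads with several matches) is not given in the sources used here. Values of overlapping genes and close relatives are therefore uncertain. The smallest deposited count was 1 in every column, so that 1 appears to have been added. Counts were used as deposited, and 1 was taken off as an alternative.

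Counts were fitted with edgeR 4.0.16 (limma 3.58.1, R 4.3.3): TMM factors, filterByExpr, the quasi-likelihood F test with the group as the only term, and Benjamini-Hochberg adjustment over all 14158 genes tested. The threshold was 0.05. An SE was obtained as the absolute log2 fold change over the root of F. The replicate numbers were taken to pair the libraries because all 3 correlations of deviations from group means were above 0.1, and the block leaves 2 residual degrees of freedom in place of 4. The labels state no pairing and these correlations come from the same counts, so that p-values with the block rest on a pairing read from the data. Block values are named as such, and other calls, and the words fell and rose, refer to edgeR without it unless DESeq2 is named. DESeq2 1.42.0 was an alternative. The fits were run on simulated counts with a common dispersion and no difference between replicate numbers. Such counts do not test the block where genes differ by replicate number, as many did here. Exon lengths and positions came from GENCODE M21 (GRCm38), which matched all 86 members, and promoters from RefSeq (GRCm38.p6).

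The members and lists were chosen with earlier results of these data known. Named were Spi1, each member called with or without the block, the 2 most abundant tested members of each role list, and per partner list up to 3 called genes or else the most abundant. Stx11, Rab8a, Rab3a, Vamp2, the other genes in the counts of calls or overlaps, the markers and Rab32 and Rab38 were named after their values were seen. Some single genes are counted in the lists but not reported here.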

Additional observations from a re-analysis of the deposited data

How the results depend on the processing

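All 15 alternatives kept the direction of Spi1 and of the 5 members that fell wherever these were tested, and Spi1 passed in each (log2 fold change between -2.35 and -2.14 without single libraries). No direction of a called gene turned. Numbers of members that fell were 5 without the block, 18 with the replicate block, 9 by DESeq2, 17 by DESeq2 with the replicate block, and between 1 and 5 without single libraries (2 without untreated replicate 1, 3 without untreated replicate 2, 1 without doxycycline replicate 1). Numbers of members that rose were 0, 5 with the replicate block, 0 by DESeq2 and 5 by DESeq2 with the replicate block, and 0 without any single library. For partner genes the numbers lower were 3, 36 with the replicate block, 9 by DESeq2, 36 by DESeq2 with the replicate block and between 0 and 3 without single libraries (0 without untreated replicate 1 or 2, 1 without doxycycline replicate 1), and those higher were 0, 11, 3 and 12 in the same order, and 0 without any single library. Leaving out a library lowers the number of samples, and the cause of the other shifts was not tested. RLE or upper-quartile factors, no filter, a minimum mean of 1 CPM and taking 1 off each count gave 4 or 5 members that fell and 3 partner genes. Under that minimum Rab25 was not tested. With exon length replaced by the longest transcript, the share of Vamp3 was 24.2% ± 0.840 untreated and 9.68% ± 0.197 treated (SD, n = 3 each). Of the 5 members that fell, Rab25, Stx3 and Rab44 had the fewest counts with doxycycline.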
